A study of Homo sapiens with 2 samples.

Results

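Transcript levels of 9 genes that encode steroid receptors, their partners and luminal transcription factors were followed across 6 breast cancer cell lines and between the cells of each line. The genes were ESR1, PGR, NR3C1, GREB1, FOXA1, GATA3, SPDEF, TFAP2B and TFAP2C, taken by symbol from the 36601 genes of the deposited table, and each matched 1 gene. The study profiled the lines by droplet-based single-cell RNA sequencing of 3′ ends with unique molecular identifiers (UMIs), after tagging each line with an oligo and pooling. BT-474 and MDA-MB-453, known as lines of luminal type with HER2 alterations, shared a pool and a capture with MDA-MB-231. The other pool held HCC38, Hs578T and MDA-MB-436, which like MDA-MB-231 are triple-negative lines. The labels list no treatment and no repeated culture, so each group is 1 culture, no test across samples was possible, and all intervals (95%) cover counting error only.

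Of 17605 cell barcodes, 15547 had at most 20% mitochondrial UMIs and were used, with 1989 to 3451 cells and 70.0 M to 96.6 M UMIs per oligo group. Since no label ties an oligo to a line, each oligo group was named, as "-like", after the line whose markers it led, and none of the 9 genes was among those markers. The groups led 8 of 8 markers of BT-474, 3 of 6 of MDA-MB-453, 5 of 6 of MDA-MB-231, 5 of 5 of MDA-MB-436, 7 of 7 of Hs578T and 4 of 6 of HCC38. The BT-474-like group also led ALOX15B and DHRS2 of the MDA-MB-453 list, and the Hs578T-like group led KRT14 and KRT17 of the HCC38 list. Of 14 markers of blood, endothelial, mural and liver cells, 0 reached 10 CPM (counts scaled to a total of 1000000 UMIs) in any group. BT-474-like cells had a median of 14.5% mitochondrial UMIs, and the medians of the other groups lay between 5.84% and 9.87%. Of the cells used, 314 carried the transcripts specific to another line at 25% or more of its own level, and 355 were left out of repeat calculations as such mixed barcodes, as doublets or as barcodes with few UMIs or genes. No barcode was shared between the groups of a pool, and 22 barcode sequences occurred in both pools.

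Estrogen receptor alpha (ESR1) is a hormone-activated transcription factor that drives PGR and GREB1 in luminal breast cells, and GREB1 is in turn a cofactor of the receptor. FOXA1 is a pioneer factor that opens chromatin for steroid receptors, GATA3 and the AP-2 factors act beside it at luminal enhancers, and SPDEF is an ETS factor of luminal and secretory epithelium. NR3C1 encodes the glucocorticoid receptor, which most cell types express and whose targets include FKBP5 and TSC22D3.

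The estrogen receptor and both of its target genes among the 9 were high in the BT-474-like group alone. ESR1, the receptor itself, had 23.1 CPM in BT-474-like cells (22.0 to 24.3), 0.469 in MDA-MB-453-like, 0.352 in MDA-MB-231-like, 0 in MDA-MB-436-like, 0.0481 in Hs578T-like and 0.114 in HCC38-like cells. PGR, the progesterone receptor, had 170.1 CPM in BT-474-like cells (167.1 to 173.2), 2.88 in MDA-MB-453-like, 3.38 in MDA-MB-231-like, 0.0758 in MDA-MB-436-like, 0 in Hs578T-like and 0.0414 in HCC38-like cells. GREB1 had 40.9 CPM in BT-474-like cells (39.4 to 42.4), 0.925 in MDA-MB-453-like, 1.23 in MDA-MB-231-like, 3.61 in MDA-MB-436-like, 0.313 in Hs578T-like and 0.259 in HCC38-like cells. For each of these genes the BT-474-like group was the only one above 10 CPM, and the next level was 49.3 times lower for ESR1 (ratio interval 35.5 to 70.7), 50.4 times lower for PGR (44.8 to 56.9) and 11.3 times lower for GREB1 (10.0 to 12.8). MDA-MB-453-like and MDA-MB-231-like cells did not differ beyond counting error in ESR1 (ratio 1.33, 0.799 to 2.24), and MDA-MB-231-like and MDA-MB-453-like cells did not in PGR (1.17, 0.981 to 1.40) or GREB1 (1.33, 0.975 to 1.82).

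The low levels in the pool neighbours of the BT-474-like group were set beside those of other genes that BT-474-like cells expressed. With mixed barcodes left out, 13 other genes with at least 50 CPM in BT-474-like cells and under 1 CPM in all 3 groups of the other pool had a median of 2.91% of the BT-474-like level in MDA-MB-453-like cells and 0.866% in MDA-MB-231-like cells. In the same cells ESR1 had 1.10% and 0.521% of its BT-474-like level, PGR 0.798% and 0.686%, and GREB1 1.45% and 1.62%, each given for MDA-MB-453-like and then MDA-MB-231-like cells. All of these lay below the medians of the 13 genes except GREB1 in MDA-MB-231-like cells, which was above. Whether the 13 genes are expressed in the neighbour lines is not known from these data, and the part of free RNA in these low levels was not tested. GREB1 in MDA-MB-436-like cells, which shared no pool with BT-474, was at 3.65 CPM without mixed barcodes and in 11.0% of cells. ESR1 in MDA-MB-436-like cells and PGR in Hs578T-like cells were at 0 UMIs, which allows up to 0.0379 and 0.0361 CPM (3 counts).

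On GRCh38 (GENCODE v29), ESR1 lies on chromosome 6 from 151656691 to 152129619 on the plus strand, PGR on chromosome 11 from 101029624 to 101130524 on the minus strand, and GREB1 on chromosome 2 from 11482341 to 11642788 on the plus strand. ESR1 is overlapped on the opposite strand by SYNE1 (13.9 CPM in BT-474-like cells) and PGR by PGR-AS1 (2.86 CPM), and whether strand was used in counting is not given in the sources used here. Of the 9 genes, 7 had start-site windows in the RefSeq promoter table (GRCh38.p14), 25 windows in all, each reaching from 250 bases before a start to 50 after it. Each was searched on both strands for 5 motifs, and for each motif the share of all 35116 windows of the table that held it was counted. The core of the estrogen response element, GGTCA, was in 37.4% of them. The forkhead motif, TGTTTAC, was in 3.42%. The GATA motif, AGATAA, was in 10.3%. The AP-2 motif, a GCC and a GGC around any 3 bases, was in 23.2%. The core of the glucocorticoid response element, AGAACA, was in 14.8%. A match is a description of the letters and not a bound site. Whether the motifs are more frequent in the windows of these genes than in all windows was not tested. ESR1 windows held the estrogen core and the glucocorticoid core, in different windows. NR3C1 windows held the estrogen core in one and the forkhead and GATA letters in another, and the TFAP2B window held none. Of the 3 PGR windows, the 2 that overlap each other held the estrogen core, read on the opposite strand as printed, and the AP-2 letters. The window at chr11:101129028-101129327 (minus strand) is shown because, of ESR1, PGR and GREB1, PGR varied most between cells, with both matches in capitals.
PGR: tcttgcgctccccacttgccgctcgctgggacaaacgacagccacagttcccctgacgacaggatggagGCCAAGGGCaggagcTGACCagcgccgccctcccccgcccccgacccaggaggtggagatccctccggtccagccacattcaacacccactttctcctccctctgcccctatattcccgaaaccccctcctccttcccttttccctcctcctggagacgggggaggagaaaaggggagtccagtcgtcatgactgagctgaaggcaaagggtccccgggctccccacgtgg

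The glucocorticoid receptor had the reverse pattern, with its lowest level in the BT-474-like group. NR3C1 had 6.03 CPM in BT-474-like cells (5.46 to 6.63), 86.6 in MDA-MB-453-like, 129.9 in MDA-MB-231-like, 73.3 in MDA-MB-436-like, 122.2 in Hs578T-like and 87.0 in HCC38-like cells. The BT-474-like level was 12.2 times below that of MDA-MB-436-like cells, the next lowest (interval 11.0 to 13.5). HCC38-like and MDA-MB-453-like cells did not differ beyond counting error (ratio 1.00, 0.973 to 1.04). Without mixed barcodes the BT-474-like level was 5.16 CPM, 3.91% of the MDA-MB-231-like and 5.92% of the MDA-MB-453-like level. For comparison, 5 genes with at least 50 CPM in MDA-MB-231-like cells and under 1 CPM in the other pool had a median of 1.08% of their own level in BT-474-like cells. For 15 such genes of MDA-MB-453-like cells the median in BT-474-like cells was 14.6%. Whether BT-474 cells express these genes is not known from these data. NR3C1 lies on chromosome 5 from 143277931 to 143435512 on the minus strand, and no annotated gene of the table overlaps it.

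FOXA1, GATA3 and SPDEF were higher in both luminal groups than in all other 4, and in each case higher in MDA-MB-453-like than in BT-474-like cells. FOXA1 had 191.9 CPM in BT-474-like cells (188.6 to 195.1), 283.1 in MDA-MB-453-like, 9.07 in MDA-MB-231-like, 2.198 in MDA-MB-436-like, 1.79 in Hs578T-like and 0.694 in HCC38-like cells. GATA3 had 320.3 CPM in BT-474-like cells (316.1 to 324.5), 1002 in MDA-MB-453-like, 34.8 in MDA-MB-231-like, 1.84 in MDA-MB-436-like, 7.73 in Hs578T-like and 61.5 in HCC38-like cells. SPDEF had 148.6 CPM in BT-474-like cells (145.8 to 151.5), 223.5 in MDA-MB-453-like, 17.8 in MDA-MB-231-like, 0 in MDA-MB-436-like, 0.0120 in Hs578T-like and 0.0414 in HCC38-like cells. The groups outside the luminal pair were not alike, since GATA3 was present in 72.4% of HCC38-like cells while FOXA1 was in 2.30% and SPDEF in 0.156% of them. MDA-MB-436-like and Hs578T-like cells did not differ beyond counting error in FOXA1 (ratio 1.23, 0.980 to 1.54). FOXA1 lies on chromosome 14 from 37589984 to 37596059 (minus strand), GATA3 on chromosome 10 from 8045378 to 8075203 (plus strand) and SPDEF on chromosome 6 from 34537802 to 34556333 (minus strand). GATA3 is overlapped by GATA3-AS1 on the opposite strand (71.2 CPM in MDA-MB-453-like and 1.79 in BT-474-like cells) and by AL390294.1 on the same strand (13.9 CPM in MDA-MB-453-like and 0.200 in BT-474-like cells), and FOXA1 by TTC6 on the opposite strand (11.98 CPM in MDA-MB-453-like and 7.28 in BT-474-like cells).

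The start-site windows of these factors are shown because all 3 were higher in both luminal groups than in the other 4. FOXA1 and SPDEF have 1 window each in the table, and neither held any of the 5 motifs. Of the 6 GATA3 windows, 3 held both the estrogen core and the AP-2 letters, and the first of these is printed with its matches in capitals. The windows are chr14:37595200-37595499 (minus strand), chr6:34556280-34556579 (minus strand) and chr10:8045083-8045382 (plus strand).
FOXA1: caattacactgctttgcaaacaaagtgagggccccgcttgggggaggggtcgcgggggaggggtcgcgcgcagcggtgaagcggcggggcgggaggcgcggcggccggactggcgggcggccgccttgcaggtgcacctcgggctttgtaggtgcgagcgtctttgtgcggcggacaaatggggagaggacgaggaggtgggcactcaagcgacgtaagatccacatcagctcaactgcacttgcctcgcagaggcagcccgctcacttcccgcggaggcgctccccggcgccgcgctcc
SPDEF: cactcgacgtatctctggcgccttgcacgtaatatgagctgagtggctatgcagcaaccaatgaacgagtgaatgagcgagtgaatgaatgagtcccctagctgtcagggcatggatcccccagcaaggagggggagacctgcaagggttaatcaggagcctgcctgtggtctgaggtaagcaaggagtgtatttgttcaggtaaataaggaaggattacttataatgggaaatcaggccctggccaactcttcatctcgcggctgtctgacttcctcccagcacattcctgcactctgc
GATA3: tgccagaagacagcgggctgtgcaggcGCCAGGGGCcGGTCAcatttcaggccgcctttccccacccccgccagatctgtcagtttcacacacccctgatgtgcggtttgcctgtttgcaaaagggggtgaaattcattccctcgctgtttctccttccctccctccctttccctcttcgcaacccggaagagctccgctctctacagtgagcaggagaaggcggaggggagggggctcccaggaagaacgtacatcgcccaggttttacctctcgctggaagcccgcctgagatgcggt

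The AP-2 factors split between the luminal groups. TFAP2B, a neural crest and luminal AP-2 factor, had 4.10 CPM in BT-474-like cells (3.64 to 4.60), 428.3 in MDA-MB-453-like, 5.53 in MDA-MB-231-like, 0.0126 in MDA-MB-436-like, 0.325 in Hs578T-like and 0.0207 in HCC38-like cells. Its levels in the pool neighbours were 0.706% of the MDA-MB-453-like level in BT-474-like and 0.601% in MDA-MB-231-like cells without mixed barcodes, against a median of 1.10% in MDA-MB-231-like cells for 15 other genes with at least 50 CPM in MDA-MB-453-like cells and under 1 CPM in the other pool. In BT-474-like cells the median of the same 15 genes was 14.6%. TFAP2C, which activates ESR1 and ERBB2, had 84.4 CPM in BT-474-like cells (82.3 to 86.6), 23.2 in MDA-MB-453-like, 4.56 in MDA-MB-231-like, 23.7 in MDA-MB-436-like, 5.27 in Hs578T-like and 24.6 in HCC38-like cells. The HCC38-like, MDA-MB-436-like and MDA-MB-453-like levels of TFAP2C did not differ beyond counting error (ratios of neighbours 1.04, 0.976 to 1.10, and 1.02, 0.957 to 1.09). TFAP2B lies on chromosome 6 from 50818723 to 50847613 and TFAP2C on chromosome 20 from 56629302 to 56639283, both on the plus strand and with no overlapping gene of the table.

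**Figure D1:**
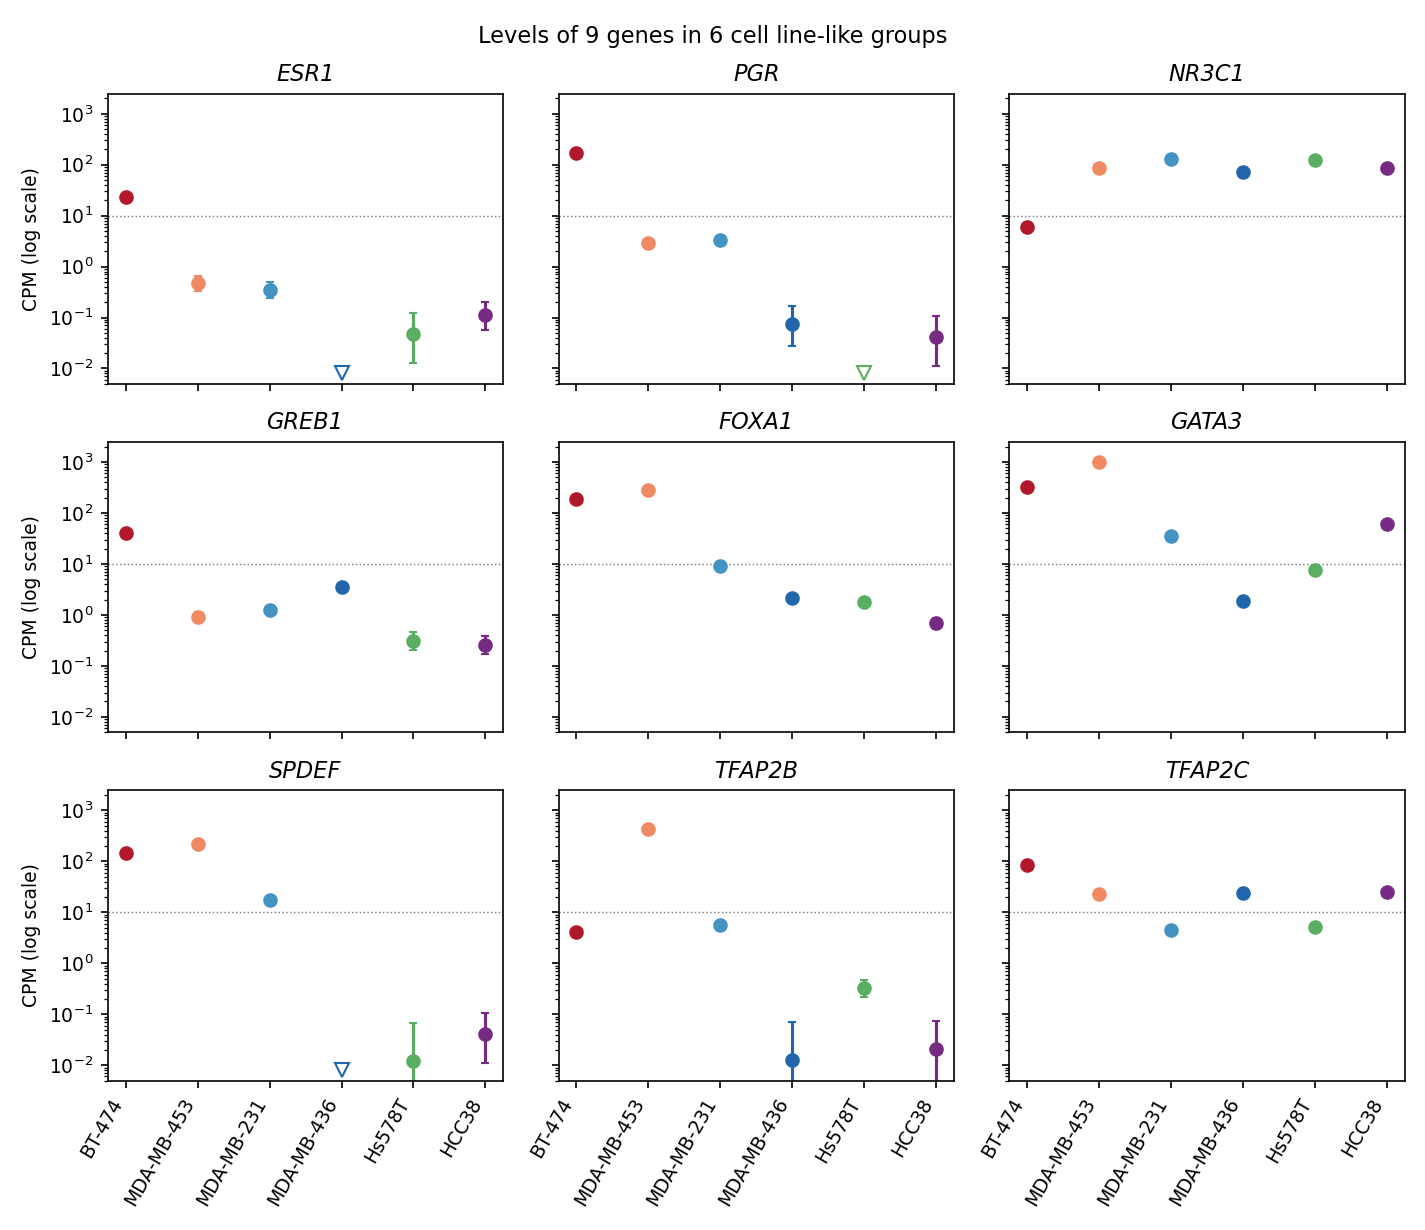
CPM (log scale) of the 9 genes in the 6 groups, luminal groups on the left, as points with exact Poisson 95% intervals that are often smaller than the point, an open triangle marking 0 UMIs and the dotted line 10 CPM. ESR1, PGR and GREB1 stand above 10 CPM in the BT-474-like group alone, TFAP2B in the MDA-MB-453-like group alone, and NR3C1 is at 6.03 CPM in BT-474-like cells against 73.3 to 129.9 CPM elsewhere.

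Across all 10901 genes with at least 10 CPM in a group, the mean of both luminal groups over the mean of the other 4, on the log2(CPM + 1) scale, was at least 2-fold higher for 11.4% and at least 2-fold lower for 22.2%. Of the other 4, only MDA-MB-231-like cells shared the capture of the luminal groups. Line type and capture therefore cannot be fully told apart in this ratio, here and in the gene lists below. Of the 9 genes, 8 were higher and NR3C1 was lower (log2 ratio -1.14), with the largest ratios in TFAP2B (6.46), FOXA1 (5.75) and PGR (5.55) and the smallest of the 8 in TFAP2C (1.82). The means of TFAP2B, PGR, ESR1 and GREB1 each rest on 1 of the 2 luminal groups. In TFAP2C and NR3C1 the MDA-MB-453-like levels (23.2 and 86.6 CPM) lay within the range of the other 4 groups, and only BT-474-like cells lay outside it. Both luminal groups were above all other 4 in FOXA1, GATA3, SPDEF and ESR1, the last at only 0.469 CPM in MDA-MB-453-like cells, which makes 4 of 9 against 11.2% of all genes, and both were below in 0 of 9 against 19.8%.

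Between the luminal groups, BT-474-like over MDA-MB-453-like, 10.8% of genes were at least 2-fold higher and 16.1% lower. Higher were PGR (log2 ratio 5.46), GREB1 (4.44), ESR1 (4.04) and TFAP2C (1.82), and lower were TFAP2B (-6.40), NR3C1 (-3.64) and GATA3 (-1.64), while SPDEF (-0.59) and FOXA1 (-0.56) did not pass 2-fold. In BT-474-like over MDA-MB-231-like cells, where 14.3% of genes were higher and 23.1% lower, 7 of the 9 were higher, NR3C1 was lower (-4.22) and TFAP2B stayed within 2-fold (-0.36). In MDA-MB-453-like over MDA-MB-231-like cells, where 17.3% were higher and 19.3% lower, TFAP2B (6.04), FOXA1 (4.82), GATA3 (4.81), SPDEF (3.58) and TFAP2C (2.12) were higher, and ESR1, PGR, GREB1 and NR3C1 stayed within 2-fold. All 3 groups compared here shared a capture. The first 2 comparisons share BT-474-like cells, and the last 2 share MDA-MB-231-like cells.

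The levels of luminal factors in the MDA-MB-231-like group were lower without mixed barcodes, and SPDEF and GATA3 stayed above 10 CPM. SPDEF had 14.1 CPM without mixed barcodes against 17.8 with them, GATA3 24.9 against 34.8, FOXA1 4.55 against 9.07, TFAP2B 2.61 against 5.53 and PGR 1.18 against 3.38 CPM. The highest count in a cell was 5 UMIs of FOXA1 without mixed barcodes and 22 with them, and 13 UMIs against 48 for GATA3. At the median shares of the comparison genes of both pool neighbours, MDA-MB-231-like cells would hold 3.77 CPM of SPDEF, 13.9 of GATA3, 4.81 of FOXA1 and 0.988 of TFAP2C. The measured levels without mixed barcodes were 3.75 times that for SPDEF, 1.78 times for GATA3, 0.946 times for FOXA1 and 3.65 times for TFAP2C. For the other members they were 1.84 times for GREB1, 0.785 for PGR, 0.593 for ESR1, 0.542 for TFAP2B and 131.4 for NR3C1. The part of free RNA in these levels was not tested. SPDEF was present in 26.2% and GATA3 in 46.2% of the MDA-MB-231-like cells that remained. That level was estimated after the values were seen, and the shares differ between genes.

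Between cells of the same group, PGR varied most of the hormone receptor genes. Cells were thinned to 10000 UMIs each, and cells with fewer were not used (16 of the BT-474-like group, 36 to 101 of the Hs578T-like, MDA-MB-436-like and HCC38-like groups, and 32 each of MDA-MB-453-like and MDA-MB-231-like). The Fano factor, variance over mean of UMIs per cell, which is 1 for counting noise alone and grows with the mean where cells differ, was 3.11 for PGR in BT-474-like cells. No UMI was found in 39.0% of these cells and 5 or more in 10.3%, with up to 17, and the 10% of cells with most PGR held 42.0% of its UMIs. Before thinning, 81.5% of BT-474-like cells had a PGR UMI, against 3.56% of MDA-MB-453-like cells, at median depths of 28472 and 20306 UMIs per cell. ESR1, at 45.5% of cells before thinning and 20.3% after it, had a Fano factor of 1.07, close to counting noise, and GREB1 had 1.24. GATA3 had 2.01 in BT-474-like, 2.18 in MDA-MB-453-like and 1.55 in HCC38-like cells, TFAP2B 1.82 in MDA-MB-453-like cells, FOXA1 1.28 and SPDEF 1.12 in BT-474-like cells, and TFAP2C 1.12. NR3C1 lay between 1.04 and 1.28 in the 5 groups that had it. Nearly every MDA-MB-453-like cell carried GATA3 (99.9%), SPDEF (88.5%), FOXA1 (91.7%) and TFAP2B (95.5%) after thinning.

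**Figure D2:**
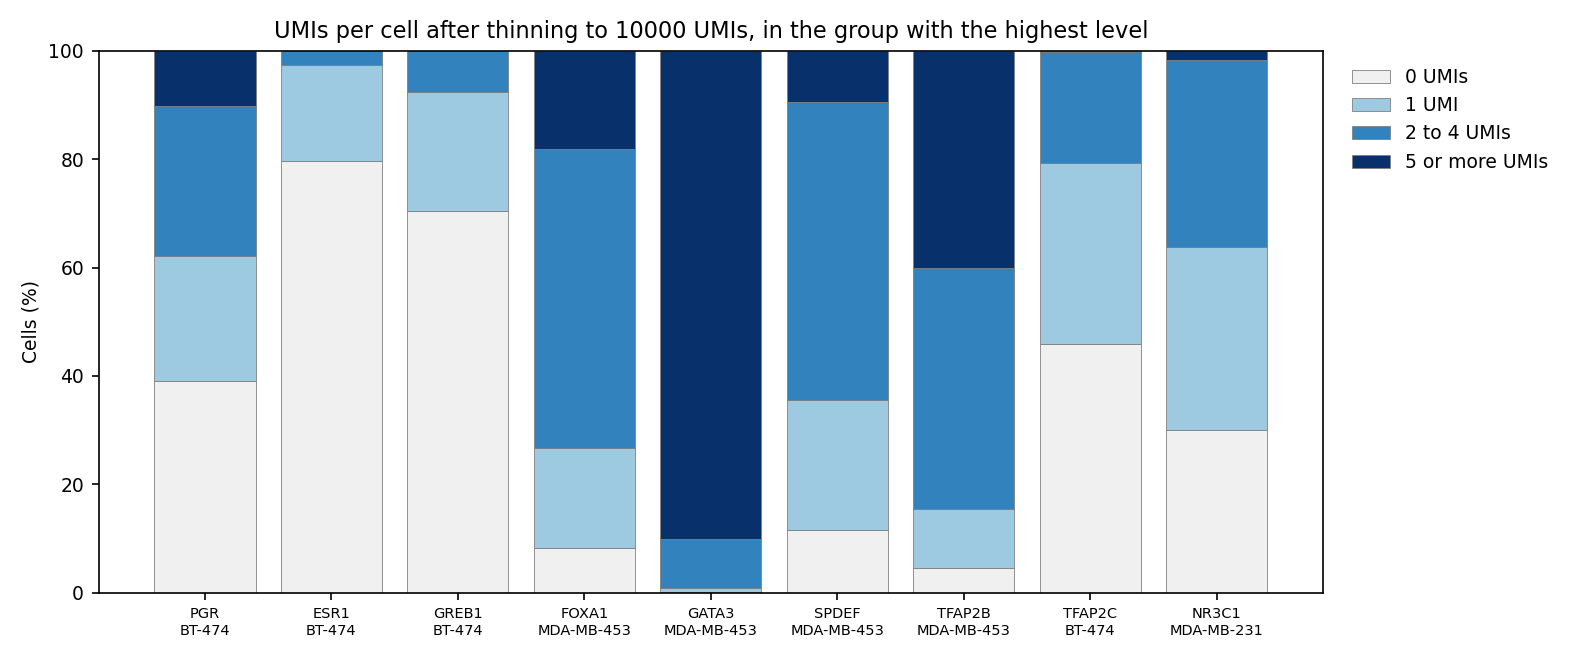
Share of cells (%) by number of UMIs of each gene after thinning to 10000 UMIs, in the group with the highest level of that gene. GATA3 has 5 or more UMIs in 90.1% of MDA-MB-453-like cells, whereas 79.7% of BT-474-like cells show no ESR1 UMI and 39.0% no PGR UMI.

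The estrogen-responsive genes went together in the same BT-474-like cells, and the luminal factors went together weakly. Across 2251 thinned BT-474-like cells, PGR and GREB1 had a Pearson correlation of 0.25, and GREB1 averaged 0.505 UMIs in cells with PGR and 0.220 in cells without it (ratio 2.30, 1.96 to 2.71). ESR1 correlated with PGR at 0.11 and with GREB1 at 0.09, and PGR averaged 1.41 times more UMIs where ESR1 was seen. ESR1 had no such relation to FOXA1, GATA3, SPDEF or TFAP2C, with correlations of 0.01 to 0.03, and PGR lay between -0.08 and -0.04 with the same 4 genes. In MDA-MB-453-like cells (3419 thinned), GATA3 correlated with TFAP2B at 0.16 and with FOXA1 at 0.13, and all other pairs lay between -0.01 and 0.11. Sparse counts pull these correlations towards 0, and the cells of a group share a library. They are given as descriptions.

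Among the genes most correlated with each member in the group of its highest level, known estrogen targets stood beside PGR, GREB1 and ESR1. For PGR they were TFF1 (0.27), GREB1 (0.26) and IGFBP5 (0.25), for GREB1 PGR (0.26), PREX1 (0.19) and TFF1 (0.17), and for ESR1 PGR (0.11), TFF1 (0.09) and PDLIM3 (0.09), on log counts. TFF1 is a classical estrogen-induced secreted peptide. In MDA-MB-453-like cells XBP1, a factor of the secretory pathway, was among the leading 3 of GATA3 (0.29), FOXA1 (0.23), TFAP2B (0.18) and SPDEF (0.16). TFAP2C in BT-474-like cells was led by ERBB2 (0.12), LASP1 (0.11) and PMEPA1 (0.11), and NR3C1 in MDA-MB-231-like cells by ISG20 (0.12), PRSS23 (0.12) and NEAT1 (0.11). All of these are weak.

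Among MDA-MB-231-like cells, the 3 pairs of FOXA1, GATA3 and SPDEF had correlations that fell to 0.04 or less without mixed barcodes. The 3 pairs with NR3C1 lay between -0.03 and 0.01 in all cells used. FOXA1 and GATA3 had a correlation of 0.33 and FOXA1 and SPDEF 0.21 in all cells used, and without mixed barcodes they had 0.04 and 0.01. GATA3 then still averaged 0.347 UMIs in cells with FOXA1 and 0.241 in cells without it (ratio 1.44, 1.03 to 1.97). The same ratio for SPDEF by FOXA1 was 1.14 (0.700 to 1.77). GATA3 and SPDEF had 0.14 in all cells used and -0.00 without mixed barcodes, where SPDEF averaged 0.149 UMIs in cells with GATA3 and 0.154 in cells without it (ratio 0.969, 0.757 to 1.23). The BT-474-like value of PGR and GREB1 was 0.25 with and without them.

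**Figure D3:**
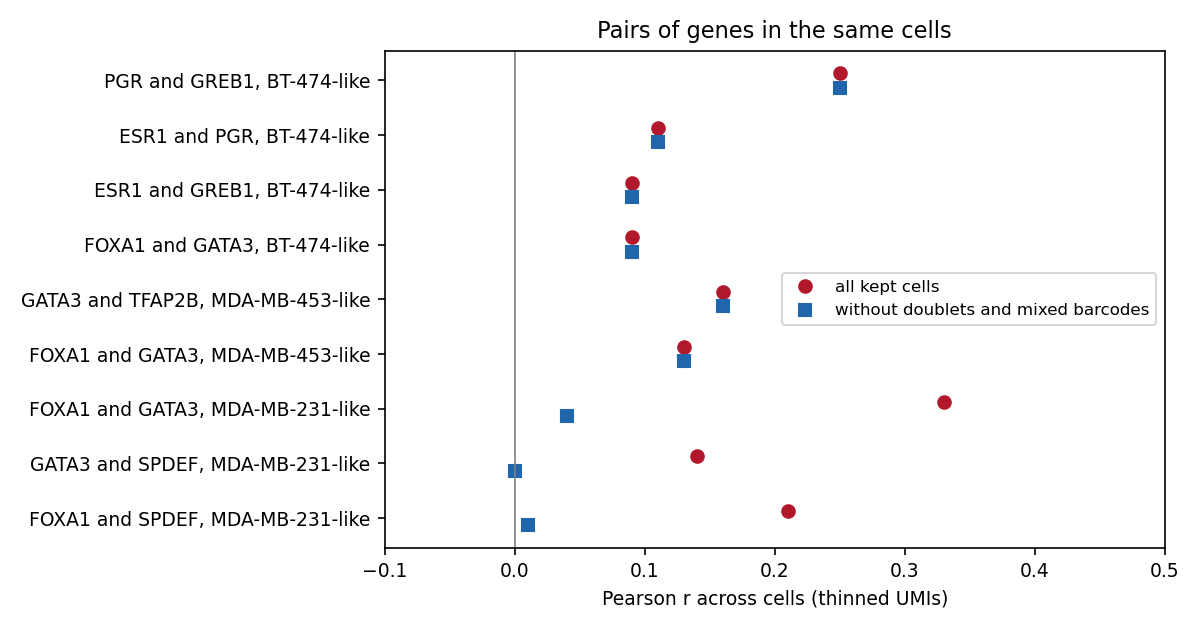
Pearson correlation across cells (x axis) of pairs of genes in the same cells, for all cells used (circles) and without doublets and mixed barcodes (squares). Of 9 pairs shown, the 3 MDA-MB-231-like pairs lie between 0.14 and 0.33 in all cells used and between -0.00 and 0.04 without mixed barcodes, and the 6 pairs of the luminal groups that are plotted are the same to 2 decimals.

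Within groups, cells high in cell-cycle transcripts had less of several luminal genes per 10000 UMIs. Intervals of these ratios take UMIs as Poisson counts, so they are too narrow for genes with a Fano factor above 1. Cells at or above the upper quartile of a list were compared with cells at or below the lower quartile, ties included. By summed UMIs of 19 G2/M genes, these were 580 and 718 BT-474-like cells. The upper class had 1.14 UMIs of PGR per cell and the lower class had 1.69 (ratio 0.677, 0.615 to 0.744). TFAP2C had 0.631 and 0.985 UMIs in the same cells (ratio 0.641, 0.563 to 0.728), and GREB1 had a ratio of 0.679 (0.563 to 0.817). ESR1 (0.997, 0.777 to 1.28), FOXA1 (0.968) and GATA3 (0.943, 0.886 to 1.00) had intervals that included 1, and SPDEF was slightly higher (1.11, 1.02 to 1.22). In MDA-MB-453-like cells GATA3 (0.814), SPDEF (0.820) and FOXA1 (0.849) were lower in G2/M-high cells while the interval of TFAP2B included 1 (0.981, 0.938 to 1.03). By S-phase genes, TFAP2B in MDA-MB-453-like cells (0.889, 0.849 to 0.931) and GATA3 in BT-474-like cells (0.857, 0.803 to 0.914) were lower in S-high cells. GATA3 also differed in HCC38-like cells, with 0.522 UMIs in G2/M-high and 0.946 in G2/M-low cells (ratio 0.552, 0.480 to 0.632), and 0.644 (0.564 to 0.735) by 20 S-phase genes. Total UMIs moved with it, since GATA3 was at 0.630 in HCC38-like cells with most UMIs over those with fewest, and its part in the result was not tested. Mitochondrial share also moved with the BT-474-like genes, with PGR at 1.27 (1.16 to 1.40) and GREB1 at 1.39 (1.14 to 1.70) in cells of high over low share, and its part was not tested.

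**Figure D4:**
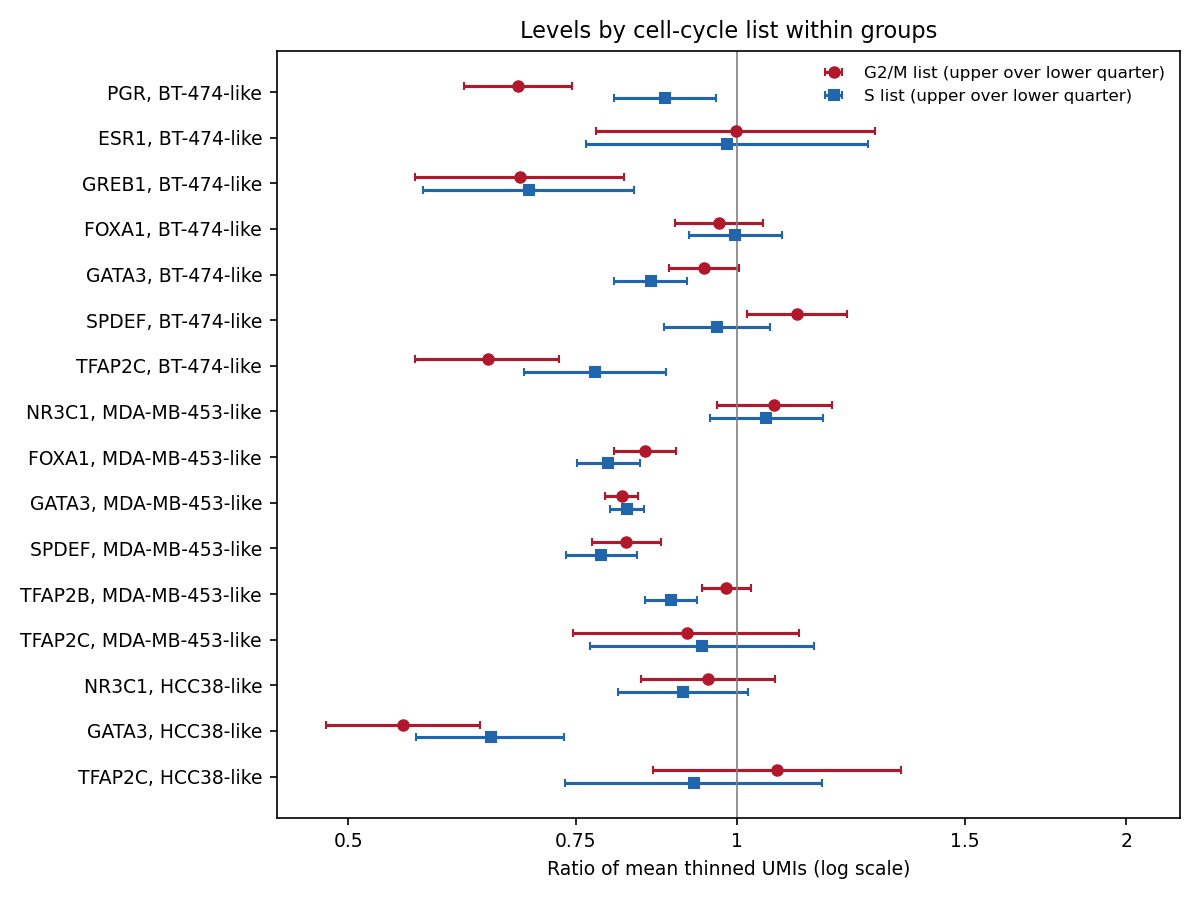
Ratio (log scale) of mean thinned UMIs in cells at or above the upper quartile over cells at or below the lower quartile, ties included. Circles are G2/M genes and squares S-phase genes, with exact 95% intervals. PGR, GREB1 and TFAP2C lie below 1 in BT-474-like cells, GATA3, FOXA1 and SPDEF in MDA-MB-453-like cells, and GATA3 at 0.552 in HCC38-like cells.

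Listed target genes of the receptors lay on both sides. Of 32 listed estrogen receptor targets, 25 reached 10 CPM in a group, and in the luminal mean over the mean of the other 4 groups 12 were at least 2-fold higher and 5 lower, with a median log2 ratio of 0.86. Over all genes 11.4% were higher and 22.2% lower, with a median of -0.21, so the lower count was near the share over all genes. The highest were the trefoil peptides TFF1 (1043 CPM in BT-474-like, 140.3 in MDA-MB-453-like and 26.6 in MDA-MB-231-like cells) and TFF3 (1064, 41.0 and 26.5 CPM in the same groups), and the lowest were IL6ST (-3.89), the shared cytokine receptor subunit, and CXCL12 (-3.72). In BT-474-like over MDA-MB-453-like cells 16 were higher and 5 lower (median 1.79), against 10.8% and 16.1% of all genes (median -0.15), with XBP1 (-2.11) and ABCA3 (-2.48) lowest. Of 27 glucocorticoid receptor targets, 20 reached 10 CPM, 3 were higher and 12 lower in the luminal mean (median -2.14), with TSC22D3 highest (2.91) and the kinase gene SGK1 among the lower ones (-4.26). In BT-474-like over MDA-MB-453-like cells 4 were higher and 4 lower (median -0.04), against 10.8% and 16.1% of all genes. Only the lower count was near its share over all genes. FKBP5, a chaperone induced by the receptor, was at 0.928 CPM in BT-474-like cells, 45.0 in MDA-MB-453-like and 45.3 in MDA-MB-231-like cells, and TSC22D3 was at 50.4, 65.1 and 9.62 CPM in the same groups.

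**Figure D5:**
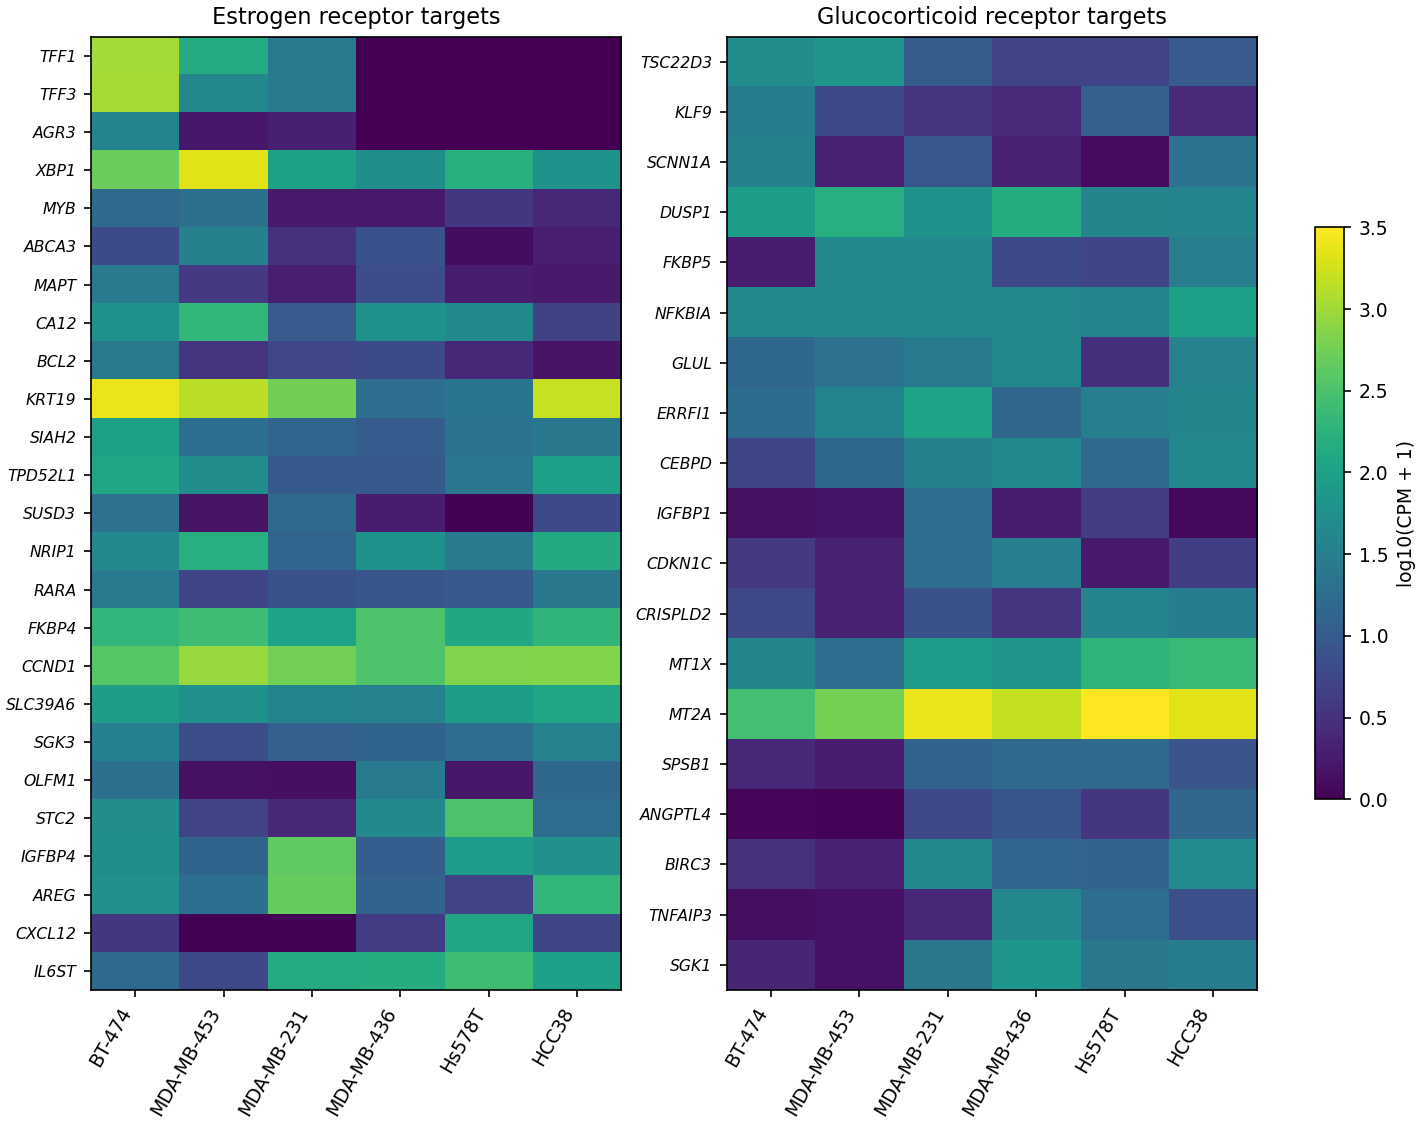
Heat map of log10(CPM + 1) of the 25 measured estrogen receptor targets (left) and 19 of the 20 measured glucocorticoid receptor targets (right) in the 6 groups, luminal groups on the left of each panel, ordered by the log2 ratio of the luminal mean over the mean of the other 4. TFF1 reaches 1043 CPM in BT-474-like cells, and FKBP5 is at 0.928 CPM there.

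In the luminal mean over the mean of the other 4 groups, other factors of luminal cells were mostly higher and basal factors mostly lower. Over all genes 11.4% were higher and 22.2% lower in the luminal mean, with a median log2 ratio of -0.21. Of 20 other luminal or epithelial transcription factors 19 were measured, 13 higher and 1 lower in the luminal mean (median 2.12), led by CREB3L4 (4.39), a membrane-anchored bZIP factor, and XBP1 (3.79), which is also on the estrogen target list. Of 22 basal or mesenchymal factors 17 were measured, with 1 higher (NFIB, 1.05) and 13 lower (median -3.85), the lowest being PRRX1 (-6.02), which was also a marker used to name the Hs578T-like group. Of 36 other nuclear receptors 27 were measured, with 7 higher and 6 lower (median -0.26), and PPARG was lowest (-3.88). The lower count and the median were near those over all genes. NR2F1, an orphan receptor, was at 5.13 CPM in BT-474-like and 507.3 in MDA-MB-453-like cells. Of 30 cofactors and chaperones 29 were measured, with 4 higher, which is near the share over all genes, and 1 lower (median 0.27), the coactivators MED1 (639.7 CPM in BT-474-like and 72.7 in MDA-MB-453-like cells) and NCOA3 (322.4 and 63.7 CPM) standing highest. Of 14 paralogs 5 were measured, 3 of them higher and 2 lower (median 1.32). Within the shared capture the basal or mesenchymal factors were less one-sided. In BT-474-like over MDA-MB-231-like cells 5 of the 17 were higher and 7 lower (median 0.00), against 14.3% and 23.1% of all genes. In MDA-MB-453-like over MDA-MB-231-like cells 2 were higher and 7 lower (median -0.63), against 17.3% and 19.3%.

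The genes whose 6 levels lay nearest to each member, by Euclidean distance of log2(CPM + 1), were ALOX15B for ESR1 (0.25), SCGB2A2 for PGR (0.27), TMEM150C for GREB1 (1.11), TNNT1 for NR3C1 (1.26), GPR160 for FOXA1 (1.81), MAL2 for GATA3 (2.39), SMIM22 for SPDEF (2.51), CLCA2 for TFAP2B (1.66) and TRIB1 for TFAP2C (1.36). SPDEF and FOXA1 were each among the 3 genes nearest to the other (2.55). ALOX15B was a marker on the MDA-MB-453 list. Distances over 6 groups describe these lines only.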

How the data were processed

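Single-cell libraries of 6 breast cancer cell lines in 2 pools were used. The authors deposited raw UMI counts per gene and barcode, which per the file headers came from Cell Ranger 6.1.2, and used GRCh38 (hg38) per the submitters' processing notes. The remaining settings have no source here. The suffixes of the barcodes, 1 to 6, are the oligo groups. Barcodes with at most 20% mitochondrial UMIs were summed per group and scaled to CPM (a total of 1000000). Ratios used a pseudocount of 1 CPM, a call needed a 2-fold difference, and a gene was measured at 10 CPM in a group. Intervals at 95% are exact Poisson for CPM, Clopper-Pearson for shares of cells and conditional binomial for ratios. They cover counting error only, since cells are not replicates. Cells were thinned to 10000 UMIs (seed 1) for distributions, pairs and cell states. Doublets were called per capture with Scrublet in scanpy 1.11.5 (1.61% of the cells used). A barcode was called mixed where 50 genes specific to a line sharing its pool summed to 25% of the median of that line. TMM factors came from edgeR 4.0.16 (R 4.3.3), an alternative scaling only. Other tools were Python 3.11.15, numpy 2.4.6 and scipy 1.17.1. Steps were tested on simulated data. The members, markers and gene lists were chosen with earlier results of these data known. Named genes were the 9 members, per list and comparison the 2 largest and 2 smallest ratios among measured genes, and per member the 3 nearest and 3 most correlated genes, of which the text gives some. The estimate of carried-over levels and the calculations without mixed barcodes for pairs, spread and cell states were added after seeing the data. Some items of the gene lists were counted but are not reported here by name.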

Additional observations from a re-analysis of the deposited data

How the results depend on the processing

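Alternatives were a mitochondrial limit of 10% or none, the removal of doublets and mixed barcodes, pseudocounts of 0.1 and 10 CPM, TMM scaling, no filter on low values and equal weight per cell. All 36 log2 ratios of the members kept their side of 2-fold under each of these 8, and those beyond 2-fold kept their direction. Ratios within 2-fold did not all keep it. Without mixed barcodes TFAP2B was at 3.07 CPM in BT-474-like and 2.61 in MDA-MB-231-like cells, against 4.10 and 5.53 in all cells used. PGR was at 1.37 CPM in MDA-MB-453-like and 1.18 in MDA-MB-231-like cells, against 2.88 and 3.38. The filter on low values does not enter the member ratios, so leaving it out could not have changed them. TMM scaling moved the median ratio over all genes, luminal mean over the other 4, to -0.08, against -0.21 with total counts. Counts of genes over all genes moved by more than 1.5 times with a pseudocount of 10 CPM: 693 higher and 1236 lower for the luminal mean, 593 and 924 for BT-474-like over MDA-MB-453-like, 871 and 1515 for BT-474-like over MDA-MB-231-like, and 1050 and 1279 for MDA-MB-453-like over MDA-MB-231-like cells. They also moved with no filter on low values, to 1808 higher for BT-474-like over MDA-MB-453-like and 2467 for BT-474-like over MDA-MB-231-like cells, where more genes were counted. Removing doublets and mixed barcodes moved 19 of 54 member levels beyond their counting interval, and the 10% limit moved 23. A mitochondrial limit of 10% left 53 and 67 BT-474-like cells in the compared G2/M classes. With it, in BT-474-like cells, SPDEF by G2/M genes changed to 0.929, NR3C1 by S-phase genes to 0.704 and GREB1 by mitochondrial share to 0.824, and PGR by G2/M genes was 0.444 (0.301 to 0.641) while TFAP2C (0.903) and GREB1 (0.865) had intervals including 1. With it TFAP2B by mitochondrial share in MDA-MB-453-like cells was 0.997. GATA3 by total UMIs in MDA-MB-231-like cells turned to 0.738 without mixed barcodes. Thinning to 5000 UMIs brought ESR1 and GREB1 in BT-474-like cells to a correlation of -0.00, PGR and GREB1 to 0.19 and the PGR Fano factor to 2.08. The cause was not tested for these changes. No paired analysis was possible because each line was sampled 1 time and replicate numbers do not exist.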
